A study of Homo sapiens with 24 samples.

Results

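Interferon-stimulated genes are the genes that a cell switches on when it meets interferon or senses viral RNA. A list of 49 such genes of the type I interferon response was followed in HB2 cells, and its members were every Illumina probe annotated to the listed symbols. By that rule 48 of the 49 genes had a probe under their name, with 72 probes in all. STAT2, a partner of IRF9 in the interferon-activated transcription factor complex, had 0 probes under its name and was not analysed here. Of the 48 genes, 43 were above background on enough arrays to be tested, among 11029 genes tested in all. HB2 is an immortalized human mammary epithelial cell line, here in medium with insulin and hydrocortisone. The cells were transfected for 48 h with 50 nM of an siRNA, which was a control siRNA in 1 group and in each of the 3 others was directed at a single exon, number 1, 7 or 9, of the noncoding transcript GNG12-AS1. Each of the 4 groups had 6 arrays of total RNA. All groups received siRNA with the same transfection reagent, so the study compares siRNAs with each other and not with cells left untransfected, and all results come from 1 cell line.

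Type I interferons are secreted proteins that bind a receptor at the cell surface and, through the JAK kinases, activate a transcription factor complex that includes STAT2 and IRF9. The complex enters the nucleus and binds a short promoter element, the interferon-stimulated response element, next to genes whose products block virus entry, degrade viral RNA, restrain translation or present antigen. Double-stranded RNA in the cytosol is read by the sensors RIGI, listed under its older name DDX58, and IFIH1, which lead to interferon production. Epithelial cells both make and answer type I interferon, and double-stranded RNA brought in by transfection is among the triggers known for the pathway.

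The titles of the arrays give an experiment number, 1, 3, 5, 7, 9 or 11, shared by 1 array of every group, so the 24 arrays fall into 6 experiments of 4 arrays. Arrays of one experiment deviated together from their group means, with a mean correlation of 0.260 over 36 pairs. Nothing in the labels says how far the experiments were separate cultures, so p-values measure the spread between these arrays. Every comparison is given with 1 mean per group and again with the experiment number as a block, called the blocked fit below. The array medians before normalization lay between 7.41 and 7.74 on the log2 scale, and 34.2% to 39.5% of probes were above background. The 4 arrays of experiment 3 stood apart from the others in the interferon genes, while their medians of 7.48 to 7.59 lay inside that range. Of 10 mammary epithelial markers 8 had a probe, and KRT5, KRT8, KRT18, KRT19, EPCAM and CDH1 were above background on all arrays, while the basal keratin KRT14 was on 0. The endothelial markers VWF, CDH5 and KDR and the fibroblast markers PDGFRA and PDGFRB were on 0 arrays, while THY1, a fibroblast marker, was on all. The immune cell markers PTPRC, CD3E, LYZ, IL3RA and NKG7 were on 0 arrays, and CD14, CD68 and CSF1R were on all.

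Many promoters of the listed genes hold the core of the response element, and 9 of them are shown because their genes give the clearest values below or stand for a role. A window of 300 bases, 250 before and 50 after the gene's start site in RefSeq (GRCh38.p14), was matched for 31 of the 49 genes, 27 of them tested. The core GAAANNGAAA of the response element was searched on both strands. It was present in 21 of the 31 windows, or 67.7%, against 3.57% of all 35116 windows of that length, and absent from the windows of RIGI, IRF1, IRF9, STAT2, CXCL11, OAS1, HERC6, IFI35, SAMD9L and PSMB9. A match describes the letters only. The stretches below lie before the start site, each is written 5′ to 3′ on the strand given, which is that of the gene, and capitals mark the core or its reverse complement TTTCNNTTTC.
IFIH1, chr2:162318685-162318730, minus strand: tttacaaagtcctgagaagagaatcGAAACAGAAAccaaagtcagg
IFIT1, chr10:89392495-89392554, plus strand: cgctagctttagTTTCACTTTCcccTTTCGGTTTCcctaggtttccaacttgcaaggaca
OAS3, chr12:112938437-112938473, plus strand: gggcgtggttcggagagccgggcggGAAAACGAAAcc
IFITM1, chr11:313975-314034, plus strand: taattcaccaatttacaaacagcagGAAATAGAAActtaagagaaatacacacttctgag
ISG15, chr1:1013365-1013424, plus strand: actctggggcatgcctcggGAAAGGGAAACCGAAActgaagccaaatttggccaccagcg
HERC5, chr4:88457020-88457079, plus strand: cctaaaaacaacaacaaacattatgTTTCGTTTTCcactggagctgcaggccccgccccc
PARP14, chr3:122680785-122680838, plus strand: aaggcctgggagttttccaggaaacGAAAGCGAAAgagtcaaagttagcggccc
ISG20, chr15:88638922-88638981, plus strand: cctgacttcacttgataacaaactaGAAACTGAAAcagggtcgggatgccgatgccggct
EPSTI1, chr13:42992257-42992316, minus strand: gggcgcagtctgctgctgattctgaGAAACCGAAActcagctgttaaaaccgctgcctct
The ISG15 stretch holds overlapping copies of the core, and the IFIT1 stretch holds a pair on the opposite strand, while each of the other stretches holds 1.

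The first feature of the data was the experiment. The level of most interferon-stimulated genes moved with the experiment number in all 4 siRNA groups at once. Of the 43 genes tested, 40 differed between experiments in limma's moderated F test with Benjamini-Hochberg adjustment, beside 27.2% of all genes tested. The 3 that did not pass were IFITM2, LGALS3BP and TRIM21. The experiment took a median of 71.8% of a member's variance over the 24 arrays, against 29.4% over all genes, and the siRNA group took 16.6% against 19.9%. The mean of the 4 arrays was highest in experiment 3 for 42 of the 43 members, beside 22.2% of all genes, and PSMB8 was the exception. For 19 members all 4 arrays of experiment 3 lay above each of the other 20 arrays, which held for 0.734% of all genes. Experiment 11 was the lowest for 25 members, beside 1429 of the 11029 genes.

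**Figure D1:**
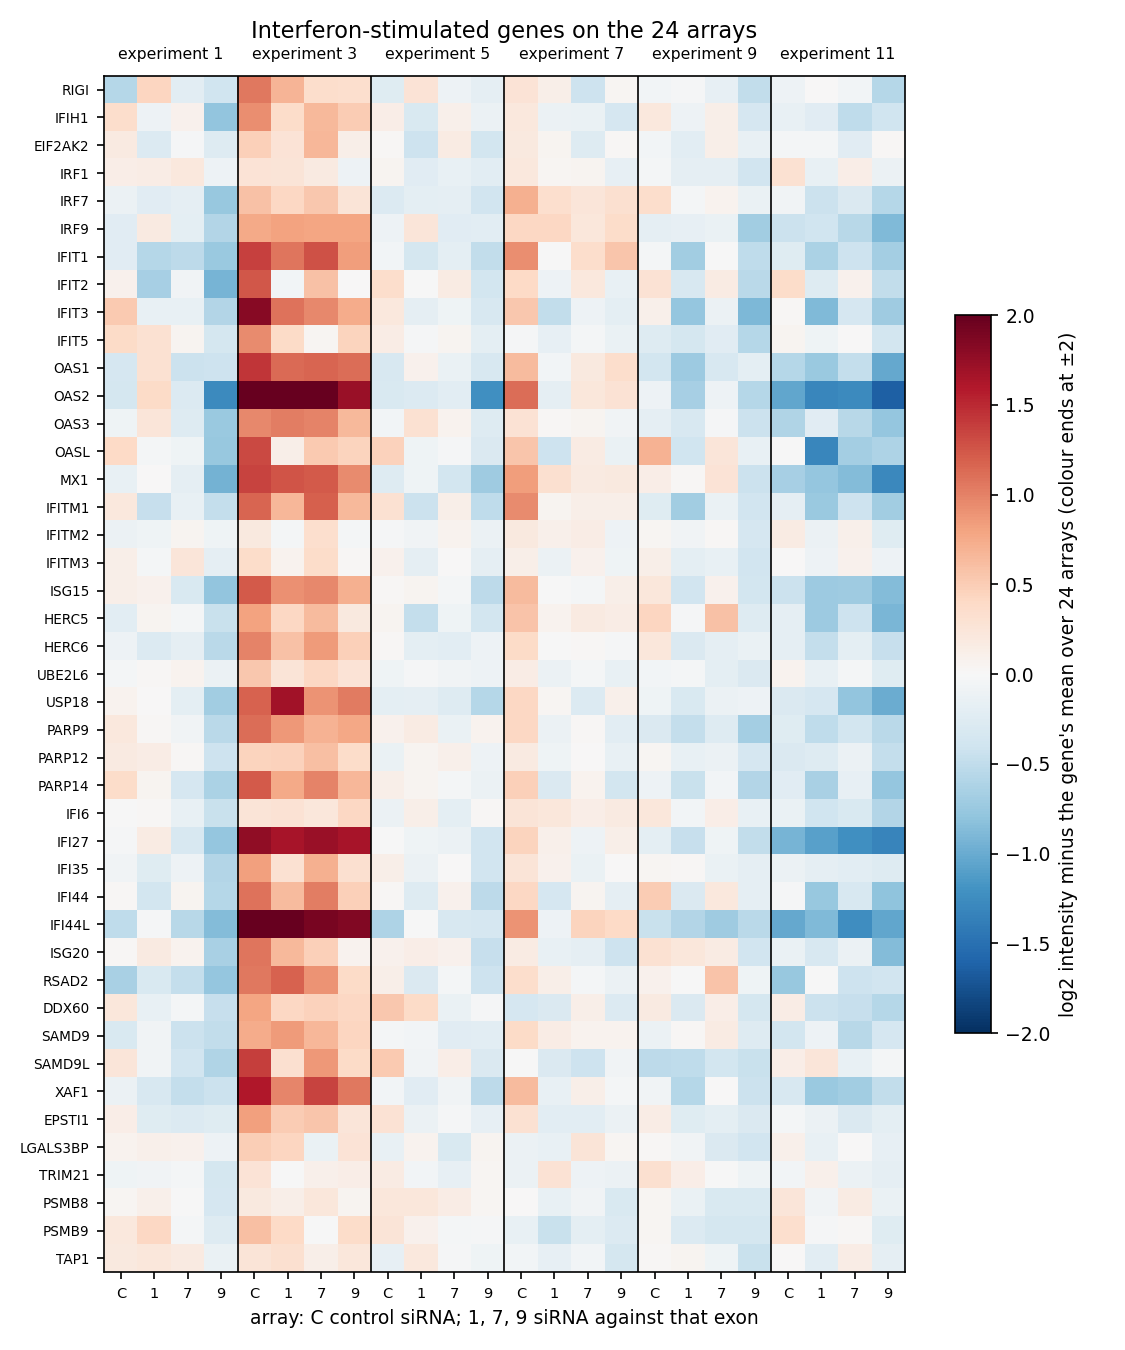
Log2 intensity of the 43 interferon-stimulated genes tested (rows) on each of the 24 arrays (columns), minus the gene's mean over the arrays. Columns are ordered by experiment and within it by control (C), exon 1, exon 7 and exon 9 siRNA. The 4 columns of experiment 3 are above the gene's mean for nearly every gene, and those of experiment 11 are below it for many.

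With experiment 3 left out, 27 of the 43 members still differed between the other 5 experiments, beside 14.1% of all genes. Each member was set against its own mean over the 24 arrays, and the median over members was then 0.61 on the log2 scale in experiment 3. It was 0.05 in experiment 7, -0.07 in experiment 5, -0.15 in experiment 9, -0.16 in experiment 1 and -0.34 in experiment 11. Over all genes the same medians lay between -0.01 and 0.01. The immune cell markers above background were also highest in experiment 3. CSF1R, a receptor of macrophages, averaged 8.72 there and 7.90 to 8.16 in the other experiments, and CD14 averaged 10.84 against 10.12 to 10.77. CD68 averaged 9.60 against 9.19 to 9.45 and did not pass the moderated F test (adjusted p = 0.0955). The other experiments were not ordered as in the members. In experiment 7, the next highest for the members, CSF1R was at its lowest (7.90) and CD14 averaged 10.32. In experiment 1 CD14 averaged 10.77. The mean of CD14, CD68 and CSF1R lay between 9.50 and 9.87 on the arrays of experiment 3 and between 8.91 and 9.54 elsewhere, and their part in the result was not tested. In RNA from whole cultures, more cells with an active response and more RNA per cell cannot be told apart.

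The 10 members with the widest range of experiment means were OAS2, IFI44L, IFI27, MX1, OAS1, XAF1, USP18, IFIT1, ISG15 and IFIT3. OAS2, which makes the oligoadenylates that activate RNase L, averaged 9.27 in experiment 3 and 5.76 in experiment 11, a range of 3.51. OAS2 was above background on 18 of the 24 arrays, so its lowest values are close to background. IFI44L, a cytosolic protein related to IFI44, averaged 8.59 in experiment 3 and 5.53 in experiment 11, and was above background on 10 arrays. Its second probe, above background on 11 arrays, averaged 6.71 in experiment 3 and 6.13 to 6.46 in the other experiments. That probe did not differ between experiments past the threshold in the moderated F test (adjusted p = 0.179). IFI27, a mitochondrial protein, averaged 13.37 in experiment 3, 11.82 in experiment 7 and 10.54 in experiment 11. Its 4 arrays of experiment 3 lay at 13.32 or more, and the highest of the other 20 lay at 12.12. MX1, a dynamin-like GTPase that traps viral ribonucleoproteins, averaged 12.92 in experiment 3, 12.11 in experiment 7, 11.73 in experiment 9, 11.41 in experiment 1, 11.38 in experiment 5 and 10.83 in experiment 11. OAS1 spanned 1.91 on the log2 scale, XAF1 1.81, USP18 1.80, IFIT1 1.65, ISG15 1.64 and IFIT3 1.63. IFITM2, with a range of 0.20, was at the other end, and the median range was 1.02 over members and 0.33 over all genes.

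**Figure D2:**
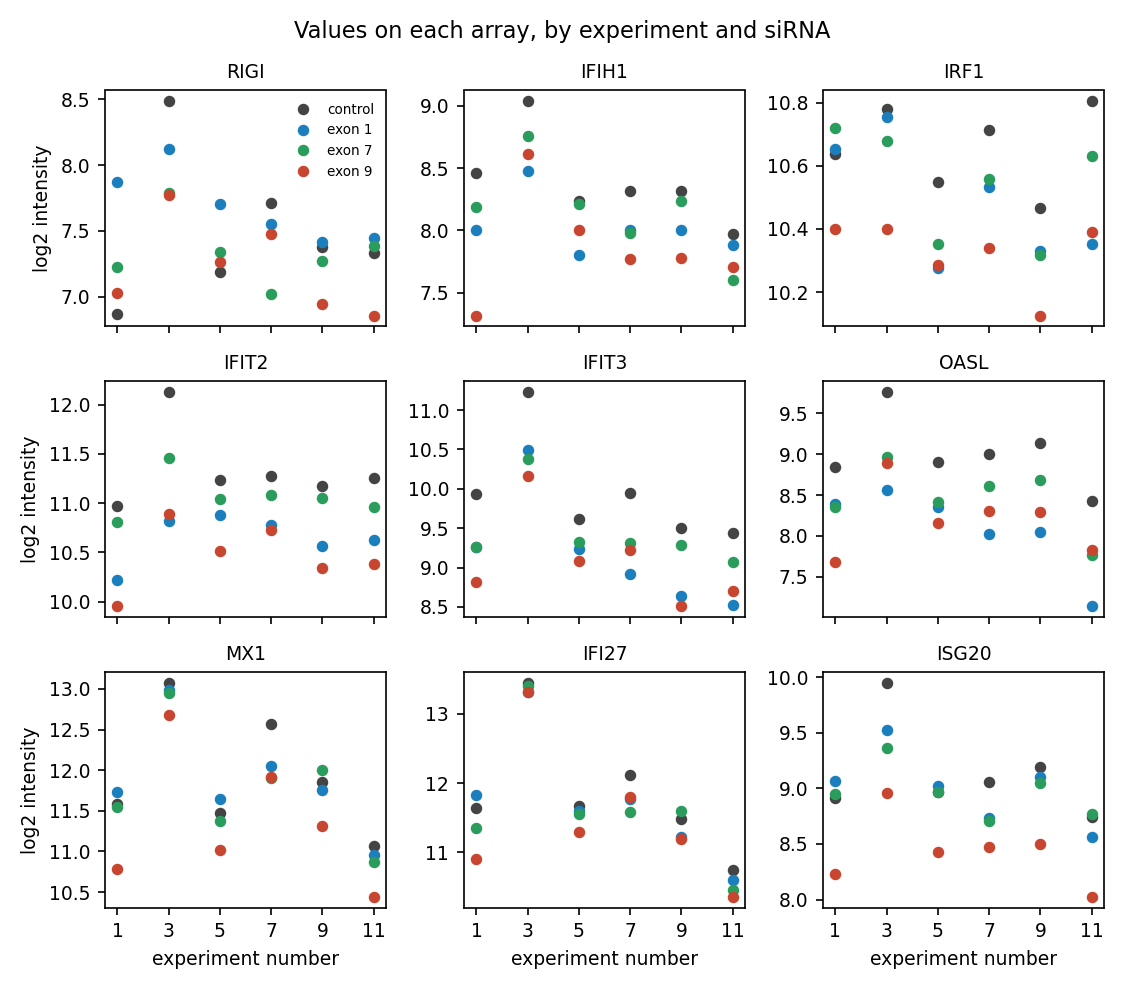
Normalized log2 intensity of 9 interferon-stimulated genes in each experiment, with 1 point per array and a colour per siRNA. All 4 points of experiment 3 are high in most panels, and in IFIT2, IFIT3 and OASL the control point is above the 3 others in every experiment.

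A pair of members too dim to test, BST2 and MX2, were brightest in experiment 3 as well. BST2, a membrane protein that tethers budding virions, was above background on 4 arrays, all of them in experiment 3, where it averaged 7.25 against 5.70 to 5.84 in the other experiments. MX2, a GTPase that acts against retroviruses, was above background on the 4 arrays of experiment 3 and on 1 other array. The chemokines CXCL10 and CXCL11, which draw T cells to a tissue, and TRIM22, an antiviral ubiquitin ligase, were above background on 0 arrays.

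Against this background the second feature was the control siRNA. Most interferon-stimulated genes had a lower mean with the siRNAs against GNG12-AS1 than with the control siRNA, and the median difference was lowest for exon 9. The median difference over the 43 members was -0.38 on the log2 scale for exon 9, -0.19 for exon 1 and -0.16 for exon 7, beside medians of -0.00, 0.01 and -0.00 over all genes. All 43 members had a difference below 0 for exon 9, beside 50.1% of all genes. The count was 36 for exon 1 (48.9%) and 40 for exon 7 (51.0%). The 3 differences share the same control arrays, so they are not independent of each other.

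The fits differed in how many of these differences passed. With 1 mean per group, limma called 3 members lower with the exon 9 siRNA at a Benjamini-Hochberg adjusted p under 0.05, beside 1.67% of all genes called lower. Those 3 were IFIT2, IRF1 and ISG20. It called 2 lower with the exon 1 siRNA, IFIT2 and OASL, beside 4.86%, and 0 with the exon 7 siRNA, beside 0.780%. At an unadjusted p under 0.05 the 1 mean per group fit had 17 members for exon 9, 7 for exon 1 and 3 for exon 7, beside 15.5%, 22.9% and 11.7% of all genes, so for exons 1 and 7 the members' share lay below that of all genes. In the blocked fit 31 members were lower with exon 9 (4.71% of all genes), 14 with exon 1 (8.80%) and 4 with exon 7 (2.56%). With the experiment as a random effect the counts were 12, 7 and 0. That fit estimates 1 correlation for all genes together and none for the members alone. The share of all genes called in that random-effect fit was not counted. No member (0 of 43) was called higher than control in either fit, where 5.18% of all genes were called higher for exon 1, 1.14% for exon 7 and 1.96% for exon 9 with 1 mean per group, and 9.89%, 2.70% and 4.52% in the blocked fit. The median standard error of a member's difference was 0.21 with 1 mean per group and 0.09 in the blocked fit, while over all genes it was 0.118 and 0.0929.

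**Figure D3:**
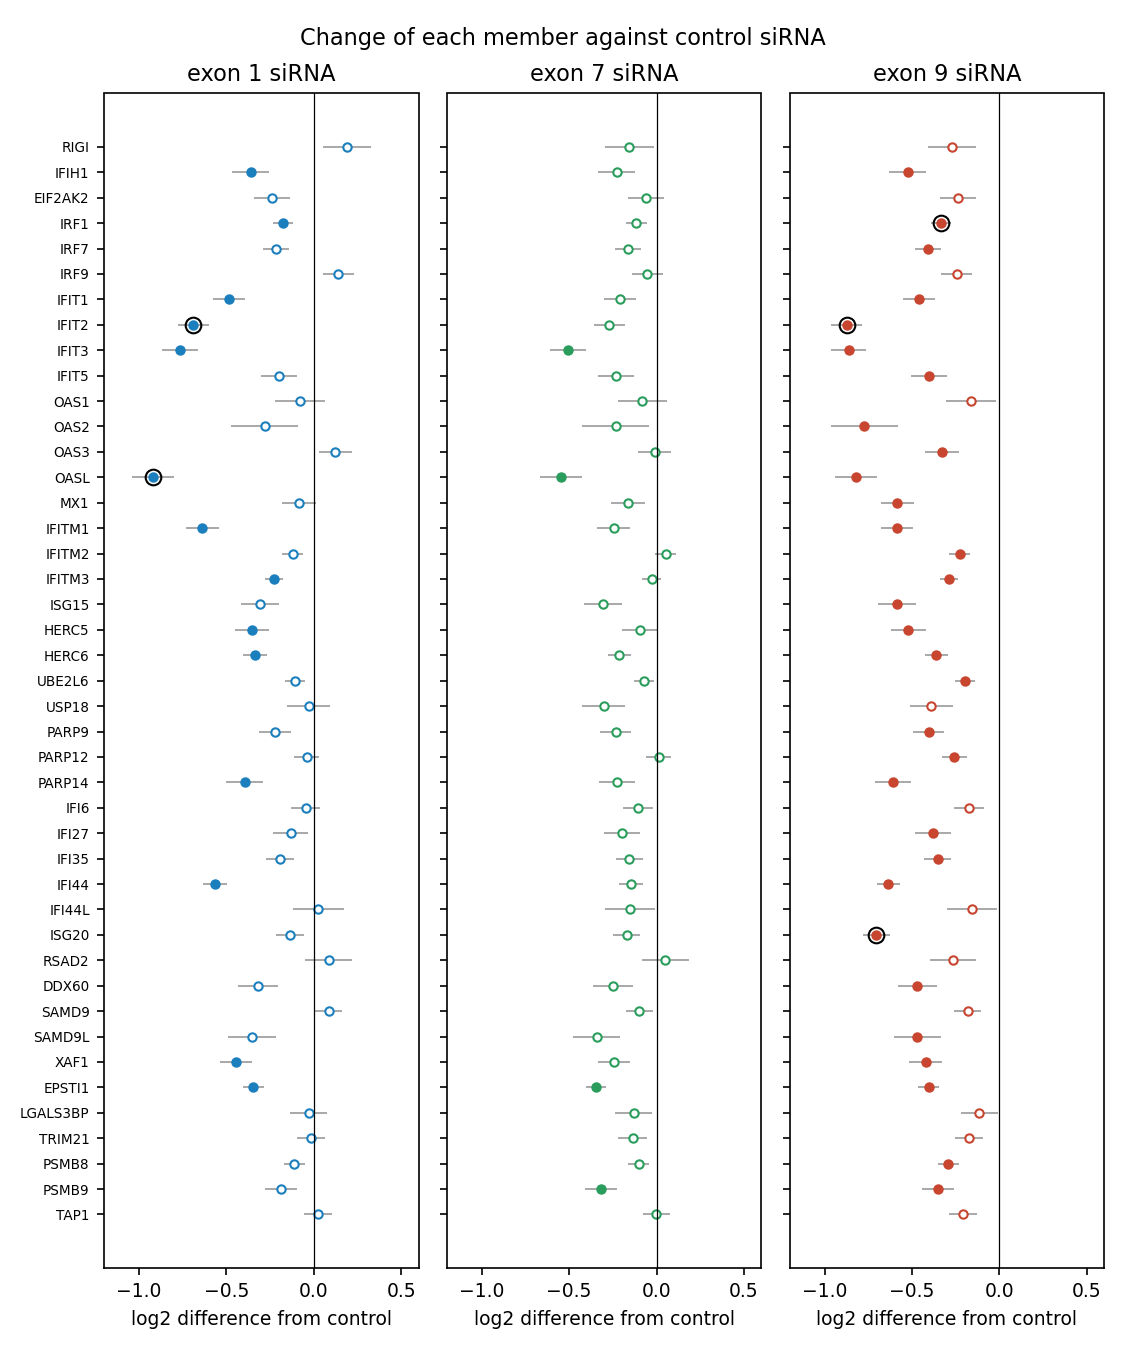
Log2 difference from the control siRNA for each of the 43 members, with the standard error of the blocked fit as bars and 1 panel per siRNA. Filled points have an adjusted p under 0.05 in the blocked fit and black rings mark those called with 1 mean per group. The exon 9 panel has 31 filled points, all left of 0.

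The calls of the blocked fit were recomputed with each array and each experiment left out in turn, 30 times in all. For exon 9, 21 of the 31 calls held in every one, for exon 1, 10 of the 14, and for exon 7, 2 of the 4. Without experiment 3, 26 of the 31, 11 of the 14 and 2 of the 4 held. The arrays also fall into 2 sets of 12 columns in the deposited table, with 3 arrays of each group and 2 of each experiment per set. limma's test of whether the siRNA effect differed between the sets called 0 of 43 members, beside 0.00% of all genes, with 2 members and 4.37% of all genes at an unadjusted p under 0.05. Inside a set any 2 groups share 1 of their 3 experiments, and the median over members there was -0.22 and -0.61 for exon 9, -0.35 and -0.04 for exon 1 and -0.43 and 0.06 for exon 7. The control and exon 9 arrays of experiment 3 stand in the first set, and its exon 1 and exon 7 arrays in the second. The part of this placement in these medians was not tested.

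Within single experiments the exon 9 siRNA array lay below the control array for 37 to 41 of the 43 members. The share over all genes was 44.3% to 56.3%. Exon 9 had the lowest median of the 3 siRNAs in every experiment but 7, where exon 7 was lower. Exon 7 had a lower median than exon 1 in experiments 1 (-0.12 against -0.03), 5 (-0.10 against -0.08) and 7. The median difference for exon 9 was -0.50 in experiment 1, -0.38 in experiment 3, -0.28 in experiment 5, -0.35 in experiment 7, -0.40 in experiment 9 and -0.41 in experiment 11. For the exon 1 siRNA 22 members in experiment 1 and 41 in experiment 7 lay below control, beside 44.9% and 50.6% of all genes. The medians ran from -0.31 in experiment 7 to -0.03 in experiment 1. The exon 7 siRNA gave medians from -0.38 in experiment 7 to -0.10 in experiments 5 and 9. In 6 of these 18 comparisons both arrays also stand in the same column set. These were exon 9 in experiments 1 and 3 (-0.50 and -0.38), exon 1 in experiments 7 and 9 (-0.31 and -0.22) and exon 7 in experiments 5 and 11 (-0.10 and -0.18), with medians over all genes from -0.01 to 0.02. Counted by gene, 28 members lay below control in all 6 experiments with exon 9, beside 7.07% of all genes. The count was 15 with exon 1, beside 9.48%, and 11 with exon 7, beside 5.44%. No member lay above control in all 6 with any of the siRNAs. Of all genes 11.1% did so with exon 1, 6.27% with exon 7 and 7.26% with exon 9.

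**Figure D4:**
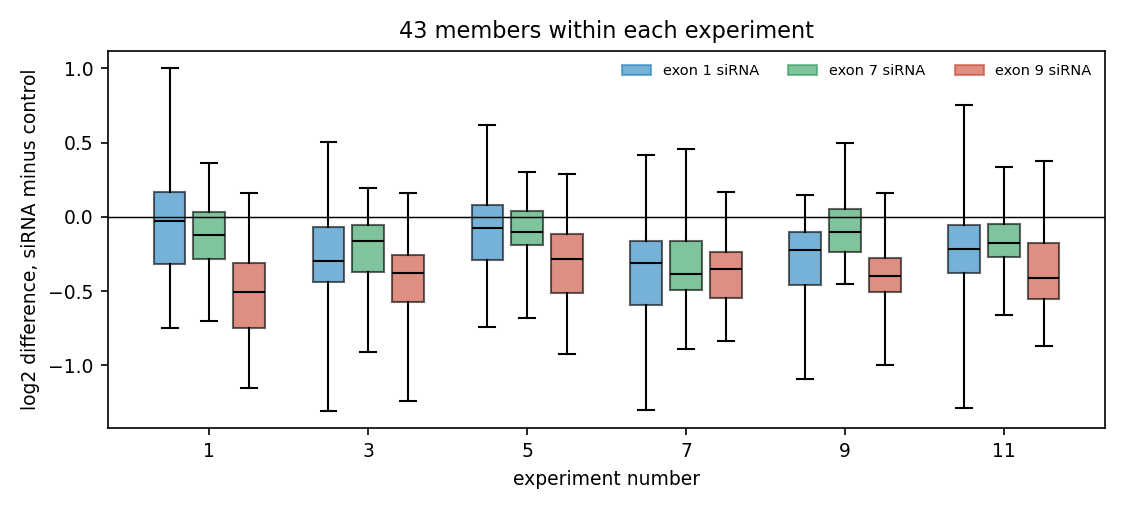
Log2 difference between each GNG12-AS1 siRNA and the control siRNA of the same experiment, as boxes over the 43 members (line, median; box, quartiles; whiskers, full range). The median lies below 0 in each of the 18 comparisons, from -0.50 to -0.03.

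Of the sensors, IFIH1 was called against control and RIGI was not, and the difference between the genes was not tested. RIGI, the sensor of RNA ends with a triphosphate, ran from 6.87 to 8.49 with the control siRNA (median 7.35), from 7.41 to 8.12 with exon 1 (7.63), from 7.02 to 7.79 with exon 7 (7.30) and from 6.86 to 7.77 with exon 9 (7.14). These ranges overlap, and no difference from control passed: 0.19 for exon 1, -0.16 for exon 7 and -0.27 for exon 9, each ± 0.20. RIGI was 1 of 7 members with a difference above 0 for exon 1, and in experiment 1 the exon 1 array lay 1.00 above the control array. IFIH1, the sensor of long double-stranded RNA, ran from 7.97 to 9.04 with control (median 8.32), from 7.80 to 8.48 with exon 1 (8.00), from 7.60 to 8.75 with exon 7 (8.20) and from 7.32 to 8.62 with exon 9 (7.77). The groups overlap, while within an experiment each of the 3 siRNA arrays lay below control in all 6 experiments. IFIH1 was lower by -0.52 with exon 9 (blocked adjusted p = 0.00314; 0.158 with 1 mean per group) and by -0.36 with exon 1 (0.0219; 0.277). The exon 1 call ended with any of 3 arrays or 4 experiments left out (adjusted p up to 0.0982). EIF2AK2, the RNA-dependent kinase that halts translation, differed by -0.24 for exon 1 and for exon 9 and was not called.

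Among the transcription factors IRF1 gave a call in both fits. IRF1, a factor induced by interferon gamma that also feeds type I responses, ran from 10.46 to 10.80 with control (median 10.67), from 10.27 to 10.75 with exon 1 (10.44), from 10.32 to 10.72 with exon 7 (10.60) and from 10.13 to 10.40 with exon 9 (10.37). The exon 9 arrays all lay below the control arrays. IRF1 fell by 0.33 ± 0.09 with exon 9 (adjusted p = 0.0412; blocked 0.000944). The first of these calls ended when any of 10 arrays (adjusted p from 0.0524 to 0.0995) or any of the 6 experiments (up to 0.149) was left out, and the blocked call held in all 30. With exon 1 the difference was -0.18 (blocked 0.0418), a call that ended with any of 11 arrays or 4 experiments left out (up to 0.202). IRF7, which drives the interferon alpha genes, was lower by -0.41 with exon 9 in the blocked fit (adjusted p = 0.00158; 0.346 with 1 mean per group), and its second probe by -0.40. IRF9, the DNA-binding subunit of the interferon-activated complex, was not called against control, with 0.14 for exon 1 and -0.24 for exon 9.

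The IFIT family, tetratricopeptide proteins that bind viral RNA and block its translation, held the smallest adjusted p-values with 1 mean per group. IFIT2 ran from 10.97 to 12.13 with control (median 11.24), from 10.22 to 10.88 with exon 1 (10.70), from 10.81 to 11.46 with exon 7 (11.05) and from 9.95 to 10.89 with exon 9 (10.45). No array of the exon 1 or exon 9 siRNA reached the lowest control array, although experiment 3 was high in the control group. IFIT2 fell by 0.87 ± 0.17 with exon 9 (adjusted p = 0.00245; blocked 4.31e-06) and by 0.69 ± 0.17 with exon 1 (0.00868; blocked 2.71e-05). Both calls held with each array and each experiment left out, in either fit. With exon 7 the difference was -0.27 and did not pass. IFIT3, the partner that stabilizes IFIT1, ran from 9.44 to 11.23 with control (median 9.77), from 8.53 to 10.49 with exon 1 (9.08), from 9.07 to 10.37 with exon 7 (9.30) and from 8.51 to 10.16 with exon 9 (8.95). Its groups overlap, and in each experiment the control array was the highest of the 4. In the blocked fit IFIT3 fell by 0.86 with exon 9 (adjusted p = 2.01e-05), by 0.76 with exon 1 (4.12e-05) and by 0.51 with exon 7 (0.00593), and the adjusted p was 0.155 to 0.624 with 1 mean per group. Its other probes gave -0.81 and -0.70 for exon 9 and -0.54 and -0.81 for exon 1. For exon 7 they gave -0.30, not called (blocked adjusted p over all probes = 0.0674), and -0.45 (0.0152). IFIT1, which binds RNA without the methylated cap, was lower by -0.49 with exon 1 and -0.46 with exon 9 in the blocked fit (adjusted p = 0.00103 and 0.003). IFIT5 was lower by -0.40 with exon 9 (blocked adjusted p = 0.0165), a call that ended with either of 2 arrays or any of 3 experiments left out (up to 0.0844).

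In the OAS family OASL gave the calls in both fits. OASL, a relative of the oligoadenylate synthetases that lacks their activity and boosts signalling by RIGI, ran from 8.43 to 9.76 with control (median 8.95), from 7.14 to 8.56 with exon 1 (8.20), from 7.77 to 8.96 with exon 7 (8.51) and from 7.68 to 8.89 with exon 9 (8.22). The groups overlap at their edges, and the control array was the highest of the 4 in each experiment. OASL fell by 0.92 ± 0.24 with exon 1 (adjusted p = 0.0138; blocked 2.78e-05), a call that ended with 1 mean per group when experiment 9 was left out (0.0613). In the blocked fit it fell by 0.82 with exon 9 (0.000203) and by 0.54 with exon 7 (0.0107), the last lost without experiment 3 (0.0728). A second, dimmer OASL probe, above background on 14 arrays, gave -0.39, -0.56 and -0.57 for exons 1, 9 and 7 and was not called. OAS2 was lower by -0.77 with exon 9 (blocked adjusted p = 0.014, up to 0.0692 with either of 2 experiments left out). OAS3 was lower by -0.33 (0.0366), a call that ended with any of 8 arrays or any of the 6 experiments left out (up to 0.113). OAS1 was not called against control, with -0.16 for exon 9, and one of its other probes did not differ between experiments past the threshold (adjusted p = 0.513).

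MX1 ran from 11.07 to 13.08 with control (median 11.72), from 10.95 to 12.99 with exon 1 (11.74), from 10.87 to 12.95 with exon 7 (11.73) and from 10.44 to 12.68 with exon 9 (11.16). These ranges overlap almost fully, and the exon 9 array was still below control in each experiment, by differences from -0.80 to -0.40. MX1 was lower by -0.58 with exon 9 in the blocked fit (adjusted p = 0.000666; 0.535 with 1 mean per group), and differed by -0.09 with exon 1, not called. Of the membrane proteins, IFITM1, which blocks virus entry at the cell surface, was lower by -0.64 with exon 1 (blocked adjusted p = 9.14e-05) and by -0.58 with exon 9 (0.00043). IFITM3, its counterpart in endosomes, was lower by -0.23 and -0.29 (0.00531 and 0.00175). IFITM2 was lower by -0.23 with exon 9 (0.0171), a call that ended with either of 2 arrays or any of 4 experiments left out (up to 0.0999). IFITM2 and IFITM3 are near-identical paralogs, and whether each probe reads its own gene alone was not checked.

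Of ISG15 and related genes, ISG15, HERC5, HERC6 and UBE2L6 were called with exon 9 and USP18 was not, and the difference between the genes was not tested. ISG15, a ubiquitin-like protein that is joined to new proteins, ran from 11.20 to 12.87 with control (median 11.81), from 10.92 to 12.56 with exon 1 (11.66), from 10.93 to 12.60 with exon 7 (11.60) and from 10.78 to 12.35 with exon 9 (11.19). Within an experiment its exon 9 array was below control throughout, by differences from -0.91 to -0.43. ISG15 was lower by -0.58 with exon 9 (blocked adjusted p = 0.0016; 0.374 with 1 mean per group), and by -0.31 with exon 1 and with exon 7, neither called. HERC5, the main human ligase for ISG15, was lower by -0.52 with exon 9 (0.00203) and by -0.35 with exon 1 (0.0167, up to 0.0745 with any of 3 experiments left out). HERC6, a related ligase, was lower by -0.36 and -0.34 (0.00182 and 0.0017). UBE2L6, the conjugating enzyme, was lower by -0.20 with exon 9 (0.0332), a call that ended with any of 9 arrays or 4 experiments left out (up to 0.138). USP18, which removes ISG15 and restrains the receptor, differed by -0.39 with exon 9 (blocked adjusted p = 0.056). All 3 ADP-ribosyltransferases of the list were lower with exon 9 in the blocked fit: PARP14 by -0.61 (0.00081), PARP9 by -0.40 (0.00654) and PARP12 by -0.26 (0.0281, up to 0.133 with 1 of 6 arrays or 4 experiments left out). PARP14 was also lower by -0.40 with exon 1 (0.0113, up to 0.0638 with either of 2 experiments left out).

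Among the remaining effectors ISG20 was called in both fits, for exon 9. ISG20, an exonuclease that degrades single-stranded RNA, ran from 8.74 to 9.95 with control (median 9.01), from 8.56 to 9.53 with exon 1 (9.04), from 8.71 to 9.36 with exon 7 (8.96) and from 8.02 to 8.96 with exon 9 (8.45). The ranges overlap, and within an experiment its exon 9 array lay below control throughout, by differences from -0.99 to -0.55. ISG20 fell by 0.70 ± 0.18 with exon 9 (adjusted p = 0.0269; blocked 1.03e-05). With 1 mean per group the call ended without the control array of experiment 3 (0.0686) or the exon 9 array of experiment 1 (0.0673) or 11 (0.0774), and without any of 5 experiments (0.0514 to 0.109), while the blocked call held in all 30 leave-outs. EPSTI1, an interferon-induced protein first found in epithelium beside stroma, ran from 10.59 to 11.43 with control (median 10.83), from 10.37 to 11.12 with exon 1 (10.45), from 10.32 to 11.18 with exon 7 (10.41) and from 10.32 to 10.86 with exon 9 (10.44). Its control array was the highest of the 4 in every experiment. EPSTI1 was lower with each siRNA in the blocked fit, by -0.40 with exon 9 (adjusted p = 0.000205) and by -0.35 with exon 1 (0.000416) and with exon 7 (0.00137), and each call held in all 30 leave-outs.

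IFI44, a cytosolic protein that slows cell growth, was lower by -0.63 with exon 9 and by -0.57 with exon 1 in the blocked fit (adjusted p = 6.34e-06 and 1.13e-05). XAF1, an antagonist of the apoptosis inhibitor XIAP, was lower by -0.45 with exon 1 and -0.42 with exon 9 (0.00199 and 0.00557). Its second probe, above background on 12 arrays, gave -0.27 with exon 1, not called (0.203), and -0.53 with exon 9 (0.0184). Called with exon 9 and not with the other siRNAs, which does not show that they differ, IFI35 was lower by -0.35 (0.00649), IFI27 by -0.38 (0.0243), the helicase DDX60 by -0.47 (0.0122) and SAMD9L, a relative of SAMD9, by -0.47 (0.0373). Of these 4, SAMD9L lost its call with any of 7 arrays or 3 experiments left out (adjusted p up to 0.16, and 0.133 without experiment 3). IFI27 lost its call with any of 5 arrays or 2 experiments left out (up to 0.085) and DDX60 with either of 2 experiments left out (up to 0.0748). For antigen processing, the immunoproteasome subunits PSMB8 and PSMB9 were lower with exon 9 by -0.29 and -0.35 (0.00379 and 0.0198, the latter up to 0.0998 with 1 of 4 arrays or 3 experiments left out). PSMB9 was at the threshold with exon 7 (-0.32, 0.0499), a call that ended with any of 19 arrays or 5 experiments left out (up to 0.189). The second PSMB9 probe, above background on all 24 arrays, gave -0.14 with exon 9 and -0.07 with exon 7 and was not called (blocked adjusted p = 0.661 and 0.893 over all probes). The second UBE2L6 probe likewise gave -0.16 with exon 9 (0.374), the second IFIT1 probe -0.20 with exon 1 (0.515) and -0.32 with exon 9 (0.326), and the second PARP9 probe -0.41 with exon 9 (0.0738). Of the 3 other PSMB8 probes 1 was called with exon 9, at -0.30 (0.0158). TAP1, the peptide transporter, had -0.21 with exon 9 and was not called. The other members with 0 calls in the 6 comparisons of groups were IFI6, IFI44L, RSAD2, LGALS3BP and TRIM21, besides EIF2AK2, OAS1 and USP18. IFI6, a mitochondrial protein, gave unlike pictures by probe: the probe that stands for the gene averaged 11.59 in experiment 3 against 10.94 to 11.49 elsewhere, and its second probe 12.09 against 8.99 to 10.51. RSAD2, a radical enzyme that makes a chain terminator of viral RNA synthesis, was above background on 17 arrays and differed by -0.26 with exon 9.

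Markers of other cell types moved with the groups too. CD14, on the list of immune cell markers, was also lower, by -0.80 ± 0.16 with exon 1 (adjusted p = 0.00174) and by -0.72 ± 0.16 with exon 9 (0.00997). The mean of CD14, CD68 and CSF1R ran from 9.26 to 9.87 with the control siRNA, from 9.17 to 9.66 with exon 1, from 9.11 to 9.85 with exon 7 and from 8.91 to 9.50 with exon 9. CD14 was lower by -0.30 with exon 7 in the blocked fit (0.0234). CD68 and CSF1R differed by -0.20 and -0.06 with exon 9 and were not called, and CSF1R was higher by 0.28 with exon 1 in the blocked fit (0.0271). Of 8 fibroblast markers 4 were tested, and their mean ran from 7.48 to 7.73 with control, from 7.74 to 8.01 with exon 1, from 7.31 to 7.60 with exon 7 and from 7.34 to 7.73 with exon 9. The exon 1 arrays all lay above the control arrays in this mean. The part of these markers in the interferon values was not tested. The defining leukocyte marker PTPRC and the fibroblast markers PDGFRA and PDGFRB were on 0 arrays.

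Between the siRNAs against GNG12-AS1, most members were at their lowest with exon 9: 42 of the 43 had a higher mean with exon 7 and 38 with exon 1. Of all genes 51.2% had a lower mean with exon 7 than with exon 9, and 48.9% with exon 1 than with exon 9. With 1 mean per group limma called 2 members higher with exon 7 than with exon 9, beside 2.22% of all genes, 0 higher with exon 1 than with exon 9, beside 4.29%, and 0 lower with exon 1 than with exon 7, beside 5.54%. Those 2 were IFIT2 and IFITM2. In the opposite directions 0 members were called in either fit, where 1.98%, 4.05% and 5.99% of all genes were called with 1 mean per group and 4.62%, 7.82% and 10.7% in the blocked fit. At an unadjusted p under 0.05 there were 5, 3 and 3 members, beside 15.7%, 21.3% and 24.3% of all genes, each above the members' share. The blocked fit called 14 higher with exon 7 than with exon 9 (5.06% of all genes), 8 higher with exon 1 than with exon 9 (9.10%) and 7 lower with exon 1 than with exon 7 (9.22%). Of these, 5, 4 and 3 held in all 30 leave-outs, and 7, 5 and 3 held without experiment 3.

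ISG20 separated exon 9 from both others, with 0.57 for exon 1 over exon 9 (blocked adjusted p = 7.94e-05) and 0.53 for exon 7 over exon 9 (0.000261). IFIT2 and IFI44 separated exon 7 from the others. IFIT2 was 0.60 higher with exon 7 than with exon 9 (adjusted p = 0.0393; blocked 0.000248) and lower with exon 1 than with exon 7 by -0.42 (blocked 0.00245). The first of these calls ended with any of 9 arrays left out when 1 mean per group was fitted (adjusted p from 0.055 to 0.115) or any of 5 experiments (0.0742 to 0.134). IFI44 was 0.49 higher with exon 7 than with exon 9 (blocked 0.000147) and differed by -0.42 between exon 1 and exon 7 (0.000249). MX1 and OAS3 were higher with exon 1 than with exon 9, by 0.50 and 0.45 (0.00144 and 0.00288) and differed between exon 1 and exon 7 by 0.08 and 0.13, not called. IRF9 was 0.38 higher with exon 1 than with exon 9 (0.00569), and RIGI 0.46 higher (0.0268, up to 0.0892 with 1 array or experiment left out). IFITM2 and IFITM3 were 0.28 and 0.26 higher with exon 7 than with exon 9 (blocked 0.00449 and 0.00417), with the paralog limit above. For IFITM2 the adjusted p was 0.0257 with 1 mean per group, which ended with any of 3 arrays or 6 experiments left out (up to 0.114), and the IFITM2 ranges of 14.01 to 14.33 and 13.64 to 13.95 did not overlap. Higher with exon 7 than with exon 9 were also MX1 (0.42), HERC5 (0.42), PARP14 (0.38), IFIT3 (0.35), IFITM1 (0.34), OAS3 (0.32), PARP12 (0.27), IRF7 (0.25) and IRF1 (0.22), with blocked adjusted p-values from 0.00907 to 0.0445. Higher with exon 1 than with exon 9 were also SAMD9, a restrictor of poxviruses, by 0.26, PARP12 by 0.22 and PSMB8 by 0.18 (0.0235 to 0.0487). Lower with exon 1 than with exon 7 were IFITM1 (-0.39), OASL (-0.38), IFIT1 (-0.28), IFITM3 (-0.20) and IFITM2 (-0.17), from 0.00548 to 0.042. Of the members in these 3 sentences, IFITM1 with exon 1 against exon 7 kept its call in all 30 leave-outs. For IFIT3 the difference between exon 1 and exon 9 was 0.10 ± 0.10 and for HERC6 0.02 ± 0.07 in the blocked fit, and neither passed.

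Further genes of the pathway were followed beside the members. A list of 132 such genes gave 88 tested genes, and 34 of them differed between experiments, beside 27.2% of all genes. Against control the blocked fit called 2 higher and 11 lower with exon 9, 12 higher and 8 lower with exon 1 and 1 higher and 6 lower with exon 7, and the counts with 1 mean per group were 2 and 3, 3 and 6, and 1 and 1. Over all genes the blocked fit called 4.52% higher and 4.71% lower with exon 9, 9.89% and 8.80% with exon 1 and 2.70% and 2.56% with exon 7. With 1 mean per group the shares of all genes were 1.96% and 1.67%, 5.18% and 4.86%, and 1.14% and 0.780%. Of 21 interferon genes with a probe, 12 were above background on 0 arrays and 1 was tested, and it was not called. Of 8 receptor and kinase genes tested, IFNGR2, a chain of the interferon gamma receptor, rose by 0.39 ± 0.09 with exon 9 (adjusted p = 0.00801) and by 0.33 ± 0.09 with exon 1 (0.0131), and IL10RB, shared by the lambda interferon receptor, rose by 0.26 with exon 1 in the blocked fit (0.0157). Of 7 transcription factors NFKB1 alone was called, with a rise of 0.21 with exon 1 in the blocked fit (0.0297).

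Of 16 sensing genes, STING1, the adaptor of cytosolic DNA sensing, fell by 0.47 ± 0.08 with exon 9 (adjusted p = 0.00145). TBK1, the kinase that activates the factors for interferon, fell by 0.39 ± 0.06 with exon 1 (0.000153), and ADAR, the enzyme that edits double-stranded RNA, fell by 0.43 ± 0.10 (0.00804). TICAM1 rose by 0.27 with exon 1 in the blocked fit (0.0354). Of 11 negative regulators, PTPN1, a phosphatase that acts on JAK kinases, rose with each siRNA, by 0.50 with exon 1, 0.53 with exon 7 and 0.54 with exon 9, each ± 0.09 and past the threshold in both fits. TNFAIP3, which curbs NF-kB, rose by 0.67 ± 0.17 with exon 1 (0.00995), and PTPN2 fell by 0.37 ± 0.09 (0.0117). SOCS1, an inhibitor of JAK kinases, differed by 0.35 with exon 1 and -0.32 with exon 7 in the blocked fit (0.0113 and 0.0472). It was above background on 16 arrays, and with 1 mean per group the adjusted p was 0.208 and 0.469. Of 14 antigen presentation genes PSMB10, the remaining immunoproteasome subunit, fell by 0.35 ± 0.08 with exon 9 and by 0.34 ± 0.08 with exon 1 (0.0154 and 0.0107). HLA-E fell by 0.39 ± 0.10 with exon 9 (0.0277), and TAP2 was lower in the blocked fit with exon 7 by -0.36 (0.0204) and with exon 9 by -0.31 (0.0317). Of 32 other interferon-induced genes, the GTPases GBP2 and GBP1 were higher with exon 1 in the blocked fit, by 0.49 and 0.33 (0.0124 and 0.0421). With 1 mean per group their adjusted p was 0.294 and 0.308, and GBP2 was above background on 11 arrays. TRIM5 fell by 0.55 ± 0.14 with exon 7 (0.0411), NUB1 fell by 0.36 ± 0.09 and IFI30 by 0.30 ± 0.08 with exon 1 (0.0144 and 0.0221), and DDX60L was lower in the blocked fit with exon 7 by -0.62 (0.00167), with exon 9 by -0.42 (0.0186) and with exon 1 by -0.32 (0.0439).

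The genes outside the list whose values followed it most closely were found by their correlation with the mean of the members over the 24 arrays, after the group means were taken out. They were ZNFX1 (r = 0.938), HELZ2 (0.925), SP110 (0.924), REC8 (0.897), PLSCR1 (0.896), LAMP3 (0.893), PARP10 (0.875), TENT5A (0.865), TMEM40 (0.856) and RUNX1 (0.856). Of 10986 genes 32 had r above 0.8 and 20 below -0.8, and a member against the mean of the other members had a median r of 0.894, from 0.379 to 0.975. The arrays share experiment numbers and are not independent, so these correlations are a description and carry no test. REC8, a meiotic cohesin subunit, averaged 8.93 in experiment 3 and 7.13 in experiment 11, and RUNX1, a transcription factor, 9.12 and 7.96. Of these 10 genes LAMP3, a lysosomal membrane protein, was called against control, lower by -0.35 with exon 9 in the blocked fit (adjusted p = 0.00321).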

How the data were processed

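Gene expression in 24 RNA samples was measured on Illumina arrays, per the labels' protocols. Of the deposited values, the non-normalized log2 intensities were used, whose medians differ between arrays. The authors' normalized log2 values, with equal array medians of 7.56 and the same ranks, served as an alternative. How the authors made either is not given in the sources used here. No control probe or detection value entered.

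Of 47231 probes 47228 had values on all arrays, 30113 had 1 symbol in GEO's platform annotation and 8 had several, and none was named from the latter. By gene number, 30074 were matched to current RefSeq names. The log was undone, background was removed by limma's normexp (offset 16) with 437 olfactory receptor probes as surrogate negatives, and the values were quantile normalized and logged again (limma 3.58.1, R 4.3.3). Probes with a surrogate detection p under 0.05 on at least 6 arrays were kept (19395). Each gene was represented by its brightest probe among these. limma's lmFit and eBayes were fitted over all 24 arrays with 1 mean per group, as a two-sided test at a Benjamini-Hochberg adjusted p of 0.05 over 11029 genes. The same fit with the experiment number as a block is the paired analysis. The pairing comes from the titles: correlations of same-number arrays ranged from 0.0328 to 0.556, 6 of 36 were under 0.1, and 21 of 24 arrays matched their own number best. The number of arrays limits the precision. The steps were tested on simulated data.

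Members and lists were chosen with earlier results of these data known, so no list test was run. Named are RIGI, IFIH1, every member past the threshold in any comparison, the 10 members with the widest range of experiment means and the 10 closest followers. Of the pathway lists some of the called genes are named, not strictly in order of adjusted p, and others such as HLA-B are not described. Members not called and dim ones are named to account for the list.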

Additional observations from a re-analysis of the deposited data

Results flagged for a closer look

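In each siRNA group of 6 arrays, the highest and the lowest array of every member was compared with the nearest of the others by Dixon's test at its 95% critical value. In 172 groups 28 arrays stood out, in 22 members. The members vary together on the same arrays, so these groups are not independent and the count carries no test. Of the 28, 25 were the array of experiment 3 as the highest of its group. All values are normalized log2 intensities.

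With the control siRNA the experiment 3 array stood out at 12.13 for IFIT2 (next 11.28), 11.23 for IFIT3, 14.38 for IFITM3, 12.71 for UBE2L6 and 9.95 for ISG20. With the exon 1 siRNA it did so at 8.48 for IFIH1, 10.49 for IFIT3, 9.55 for USP18 (next 7.90), 9.54 for IFI44, 8.75 for IFI44L (next 6.57), 7.91 for RSAD2, 10.75 for SAMD9, 9.83 for XAF1 and 11.12 for EPSTI1. With the exon 7 siRNA the values were 10.37 for IFIT3, 10.47 for IFITM1, 10.11 for HERC6, 10.31 for PARP9, 10.77 for PARP12, 9.55 for PARP14, 10.65 for IFI35 and 11.18 for EPSTI1. With the exon 9 siRNA they were 12.44 for UBE2L6, 9.90 for XAF1 and 10.86 for EPSTI1.

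The other 3 arrays were of other experiments. OASL was lowest at 7.14 with the exon 1 siRNA in experiment 11 (next 8.03), IFIT5 was lowest at 6.54 with exon 7 in experiment 9, and IFITM2 was highest at 14.08 with exon 1 in experiment 7.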

How the results depend on the processing

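Every direction below is relative to an all-gene median near 0. The spread between experiments, which 1 mean per group leaves in the error, sets how many members pass, and experiment 3 is 1 of 6. OAS2, IFI44L, RSAD2 and SAMD9L have arrays near background. The block combined with another change, and leave-outs under the block, were chosen after seeing the data. Counts are members called. For these siRNA comparisons the share of all genes was counted only with 1 mean per group and in the blocked fit.
For exon 9 against control the count was 3 with 1 mean per group and 31 with the replicate block. Combined with a further change the block gave 26 with the compared groups alone, 27 with median scaling, 28 with the stricter filter or every probe, 30 with probe means, 31 without background correction or on the authors' values and 33 with the column set, and 12 as a random effect. Without the block the count was 5 without background correction, on the authors' values or with the stricter filter, 6 with array weights, 1 with median scaling, and 0 and 1 within the column sets.
For exon 1 the 2 became 14 with the block, 12 with median scaling or the compared groups, 14 with every probe, 15 with probe means and 17 under the other 4 changes, 7 as a random effect, 1 with probe means and no block, and 0 in each column set. For exon 7 the 0 became 4 with the block, 4 without background correction or on the authors' values, 3 with probe means, every probe or the compared groups and 5 under the other 3, and stayed 0 as a random effect.
For exon 1 against exon 7 the 0 became 7 with the block (4 to 8 under its further changes, that is 4, 6, 7 and 8) and 3 as a random effect. Against exon 9 the 0 became 8 (4, 6, 8, 9, 10 and 11) and 1 as a random effect, with the column set, without background correction, on the authors' values, with the stricter filter or array weights. For exon 7 against exon 9 the 2 became 14 (5, 9, 13, 14, 15 and 16), 4 as a random effect, 0 with median scaling, 1 with no filter, every probe or the compared groups, and 0 and 1 within the column sets.
With 1 array or experiment left out, with and without the block, the counts ranged from 1 to 32 for exon 9, 1 to 17 for exon 1, 0 to 5 for exon 7, 0 to 9 for exon 1 against exon 7, 0 to 10 for exon 1 against exon 9 and 0 to 16 for exon 7 against exon 9. Members differing between experiments ranged from 27 to 40. The median difference from control ranged from -0.51 to -0.24 for exon 9, -0.31 to -0.10 for exon 1 and -0.31 to -0.0257 for exon 7. In column sets 1 and 2 it was -0.22 and -0.61, -0.35 and -0.0424, and -0.43 and 0.0633. For exon 9 it was -0.30 without background correction or on the authors' values, with or without the block.
By construction any 2 groups of a column set share 1 of their 3 experiments. Of experiment 3, set 1 holds the control and exon 9 arrays and set 2 the exon 1 and exon 7 arrays. In set 1 the sign turned for exon 9 against control in OAS3 (0.046), PARP9 (0.0176) and IFI27 (0.25), for exon 1 against exon 7 in OASL (0.0234) and for exon 1 against exon 9 in IRF9 (-0.22), MX1 (-0.16), SAMD9 (-0.14), OAS3 (-0.0261) and PARP12 (-0.0174). For exon 7 against exon 9 it turned in MX1 (-0.43), OAS3 (-0.36), IFIT3 (-0.27), IFITM1 (-0.24), PARP14 (-0.20), IRF7 (-0.14), HERC5 (-0.0757) and PARP12 (-0.0671).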
